A study of Mus musculus with 12 samples.

Results

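A set of 10 genes of the white adipocyte was followed in mouse dermis: Adipoq, Lep, Retn, Cfd, Plin1, Plin4, Cidec, Lpl, Fabp4 and Pparg. They were chosen by gene symbol, matched to Ensembl gene ID, and are 10 of the 55401 genes in the expression table. In 9 of them the mean level over all samples reached 1 FPKM (sequenced fragments per kilobase of transcript after scaling to library depth), the minimum for testing. Lep, at a mean of 0.528 FPKM, did not. Dermis RNA was sequenced from C57BL/6 mice aged 6 weeks, either wild type (WT) or lacking Cthrc1 (Cthrc1-/-), in a model in which paired wounds of equal size were made. Cthrc1 encodes a secreted protein with a collagen triple helix repeat. Both genotypes were sampled at day 0 and at day 7, and each of these 4 groups has 3 biological replicates, which makes 12 samples. How the Cthrc1 allele was made, and whether a sample pooled animals, is not stated in the labels.

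White adipocytes form a layer at the base of the dermis, around the lower hair follicles, and this layer is known to thin and thicken with the hair cycle. An adipocyte holds one large droplet of triglyceride. PPARG, a nuclear receptor, turns on the genes that make and fill that droplet. Lipoprotein lipase and fatty acid carriers bring lipid in, perilipins and CIDEC coat and enlarge the droplet, and the cell secretes the adipokines adiponectin, leptin and resistin together with the complement protease adipsin, the product of Cfd.

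The promoters of Adipoq, Retn and Cfd, 3 genes of secreted products called lower in WT at day 7, are shown. Beside them is 1 Pparg promoter, because the first 3 genes had log2 changes of about equal size while Pparg had a smaller one. The Lep promoter is not printed. Sequences are from RefSeq on GRCm38.p6. Each line runs 5′ to 3′ over the 250 bases before a transcript start on the + strand, and capitals mark a match to a searched motif.
Adipoq, chr16:23146286-23146535: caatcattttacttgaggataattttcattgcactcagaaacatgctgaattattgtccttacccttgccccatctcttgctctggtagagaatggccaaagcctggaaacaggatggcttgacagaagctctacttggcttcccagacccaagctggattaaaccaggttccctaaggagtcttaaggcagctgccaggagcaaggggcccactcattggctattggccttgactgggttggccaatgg
Retn, chr8:3655520-3655769: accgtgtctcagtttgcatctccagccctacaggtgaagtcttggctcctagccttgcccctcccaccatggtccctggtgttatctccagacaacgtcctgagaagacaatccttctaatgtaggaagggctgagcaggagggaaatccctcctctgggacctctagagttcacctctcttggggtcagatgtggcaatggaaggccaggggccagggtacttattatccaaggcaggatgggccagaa
Cfd, chr10:79890603-79890852: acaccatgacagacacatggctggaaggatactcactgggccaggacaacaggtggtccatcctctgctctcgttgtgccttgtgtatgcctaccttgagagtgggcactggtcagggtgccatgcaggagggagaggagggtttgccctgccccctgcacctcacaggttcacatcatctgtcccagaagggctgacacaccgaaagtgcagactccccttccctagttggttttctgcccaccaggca
Pparg, chr6:115421816-115422065: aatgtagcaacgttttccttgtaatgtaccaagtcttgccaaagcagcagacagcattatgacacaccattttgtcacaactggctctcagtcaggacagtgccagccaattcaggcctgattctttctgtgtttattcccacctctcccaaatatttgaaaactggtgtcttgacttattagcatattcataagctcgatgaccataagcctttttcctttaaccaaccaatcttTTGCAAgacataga
The promoter table matched 8 of the 10 genes, all but Fabp4 and Lpl, with 11 promoters. On both strands 4 motifs were searched: the nuclear receptor motif AGGTCA, the C/EBP core TTGCAA, the TATA box TATAAA and the GC box GGGCGG. None of them overlaps another in the sequences printed, and the one match there is the TTGCAA at bases 14 to 9 before the third Pparg start. Of all 32851 promoters of this length, 14.0% hold AGGTCA, 5.34% TTGCAA, 12.4% TATAAA and 32.7% GGGCGG. Among the 8 genes, Pparg holds each of the 4 motifs in at least 1 of its 3 promoters and Lep holds the GC box. A match is a string of letters and not a measured binding site.

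The libraries held between 48329668 and 76938132 counts. Cthrc1 itself averaged 23.3 ± 3.21 FPKM (SD, n = 3) in WT at day 0 and 91.9 ± 16.4 FPKM at day 7, and no Cthrc1-/- library had more than 15 counts of it. The tissue make-up of the samples differed, within groups as well as between them. Hair shaft and inner root sheath markers (9 genes in the table) summed to between 3.72 and 6.62 FPKM in WT day 0, against 245, 5142 and 12662 FPKM in replicates 1 to 3 of Cthrc1-/- day 0. They summed to 1722 to 4118 FPKM in WT day 7 and 524 to 5565 FPKM in Cthrc1-/- day 7. Replicate 3 of Cthrc1-/- day 0 had the highest hair sum and the lowest sum of fibroblast markers, 6.05% of the WT day 0 mean. Replicate 1 of WT day 7 had the highest macrophage sum, 437% of that mean, and the lowest epidermal sum, 29.4%. Epidermal markers were nevertheless abundant in every library labelled dermis, at 2495 to 10019 FPKM over 8 genes. Wap, a milk protein gene of mammary epithelium, had 63.6 and 9.33 FPKM in replicates 1 and 2 of WT day 0. Wap was at 0 in replicate 3 and did not exceed 0.181 FPKM in the other 9 samples. Csn2, of the same list, had 2.75 and 0.158 FPKM in replicates 1 and 2 of WT day 0 and was at 0 in all other samples. Csn3 had 1.53, 0.166 and 0 FPKM in WT day 0 and up to 0.486 FPKM elsewhere. The list of 6 genes summed to 55.5 to 131 FPKM in WT day 0 and 22.3 to 155 FPKM elsewhere. Of this, Epcam alone had 51.4 to 58.9 FPKM in WT day 0 and 22.1 to 151 FPKM elsewhere. Csn2, Csn3 and Epcam were named after their values were seen. Up to 4 of those 6 genes were at 0 in a library. The part of mammary tissue in the adipocyte values was not tested.

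**Figure D1:**
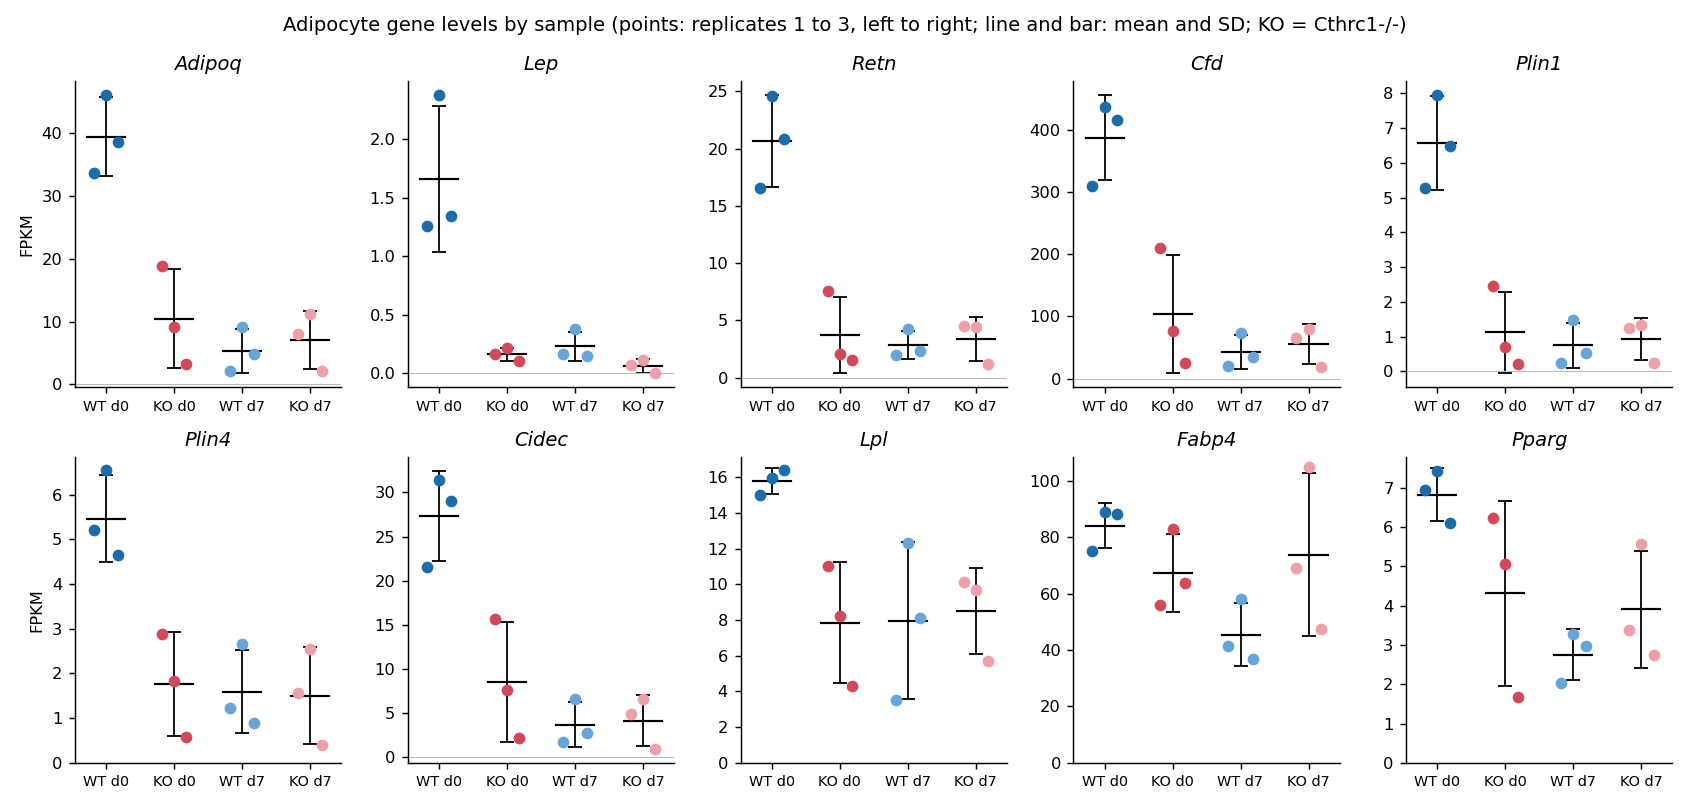
FPKM of the 10 adipocyte genes (1 panel a gene, linear axes) in WT and Cthrc1-/- (KO) dermis at day 0 (d0) and day 7 (d7); points are replicates 1 to 3 and bars the mean and SD. WT day 0 lies above WT day 7 in every panel, and 8 of the 10 panels have no overlap between WT and Cthrc1-/- at day 0, the exceptions being Fabp4 and Pparg.

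The secreted products were highest in WT dermis at day 0. Adipoq (chr16:23146536-23158028), encoding adiponectin, stood at 33.6, 46.1 and 38.6 FPKM in replicates 1 to 3 of WT day 0. It stood at 2.10, 9.14 and 4.80 FPKM in WT day 7, at 18.9, 9.14 and 3.34 FPKM in Cthrc1-/- day 0 and at 7.96, 11.2 and 2.09 FPKM in Cthrc1-/- day 7. The 3 WT day 0 samples were thus the highest of the 12, and the other 3 groups overlapped one another. From day 0 to day 7 in WT, Adipoq fell by 3.10 on the log2 scale (SE 0.78, edgeR adjusted p = 0.0305).

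Cfd (chr10:79890853-79892655), which encodes adipsin, was the most abundant of the 10 in WT day 0, at 309, 437 and 416 FPKM. In WT day 7 it measured 20.5, 72.7 and 34.6 FPKM. The Cthrc1-/- samples measured 209.9, 76.6 and 25.5 FPKM at day 0 and 65.7, 80.3 and 19.0 FPKM at day 7. Its decrease over the 7 days in WT was the largest of the 9 tested, a log2 change of -3.40 (SE 0.82, edgeR adjusted p = 0.0262), and replicate 1 of Cthrc1-/- day 0 lay nearest to WT day 0.

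Retn (chr8:3655770-3660110), the gene of resistin, had 16.6, 24.6 and 20.9 FPKM in WT day 0 and 1.95, 4.28 and 2.33 FPKM in WT day 7. It had 7.54, 2.04 and 1.56 FPKM in Cthrc1-/- day 0, and 4.52, 4.45 and 1.19 FPKM in Cthrc1-/- day 7. Retn had the smallest adjusted p of the 9 genes both between the days in WT (log2 change -3.05, SE 0.70, edgeR adjusted p = 0.0219) and between the genotypes at day 0 (log2 change -2.55, SE 0.69, edgeR adjusted p = 0.0556). The second comparison misses the 0.05 threshold.

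Lep (chr6:29060220-29073877), encoding leptin, was low throughout. WT day 0 had 246, 681 and 244 counts, or 1.25, 2.38 and 1.34 FPKM. WT day 7 had 0.168, 0.373 and 0.144 FPKM, Cthrc1-/- day 0 had 0.163, 0.218 and 0.103 FPKM, and the first 2 replicates of Cthrc1-/- day 7 had 0.072 and 0.114 FPKM. The third had 0 counts, which allows up to 3 counts, or 0.0487 CPM, the count scaled to the library total. All 9 samples outside WT day 0 were below all 3 within it. In a fit with no filter on low values, Lep differed by a log2 change of -3.39 between genotypes at day 0 (edgeR adjusted p = 0.0961) and -3.02 between days in WT (edgeR adjusted p = 0.0815), so neither was called.

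The droplet coat genes were likewise highest in WT day 0. Plin1 (chr7:79720218-79732903), encoding perilipin 1, the gatekeeper of lipolysis on the droplet surface, had 5.28, 7.96 and 6.49 FPKM in WT day 0. It had 0.258, 1.47 and 0.523 FPKM in WT day 7, a log2 change of -3.33 (SE 0.96, edgeR adjusted p = 0.0464). In Cthrc1-/- it had 2.45, 0.693 and 0.228 FPKM at day 0 and 1.25, 1.33 and 0.251 FPKM at day 7. Within Cthrc1-/- day 0, Plin1 thus ran from 3.47% to 37.3% of the WT day 0 mean.

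Cidec (chr6:113424634-113435760), whose product fuses small droplets into a large one, had 21.6, 31.4 and 29.0 FPKM in WT day 0 against 1.70, 6.54 and 2.66 FPKM in WT day 7. The log2 change was -3.12 (SE 0.86, edgeR adjusted p = 0.0402). Cthrc1-/- samples had 15.7, 7.64 and 2.19 FPKM at day 0 and 4.84, 6.61 and 0.914 FPKM at day 7. No Cidec value outside WT day 0 reached the lowest value within it.

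Plin4 (chr17:56100591-56109803), another perilipin, had a smaller log2 change than Plin1 in WT. Its WT samples had 5.20, 6.54 and 4.64 FPKM at day 0 and 1.22, 2.65 and 0.896 FPKM at day 7, without overlap, but the log2 change of -1.97 (SE 0.73) did not pass (edgeR adjusted p = 0.0959). Plin4 in Cthrc1-/- had 2.88, 1.84 and 0.567 FPKM at day 0 and 1.57, 2.55 and 0.394 FPKM at day 7.

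The lipid uptake genes had smaller log2 changes over time in WT than the droplet coat and adipokine genes. Lpl (chr8:68880491-68907448), encoding lipoprotein lipase, had 15.0, 16.0 and 16.4 FPKM in WT day 0 and 3.50, 12.3 and 8.09 FPKM in WT day 7. It had 11.0, 8.21 and 4.29 FPKM in Cthrc1-/- day 0 and 10.1, 9.66 and 5.73 FPKM in Cthrc1-/- day 7. Its log2 change in WT was -1.20 (SE 0.44) and did not pass (edgeR adjusted p = 0.0924), and replicate 2 of WT day 7 kept 77.9% of the WT day 0 mean.

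Fabp4 (chr3:10204088-10208576), the fatty acid carrier of adipocytes, which capillary endothelium and macrophages also express, had 75.0, 88.9 and 88.3 FPKM in WT day 0. It had 41.6, 57.9 and 36.8 FPKM in WT day 7, a log2 change of -1.07 (SE 0.29, edgeR adjusted p = 0.0400), the smallest of the 9. In Cthrc1-/- it had 55.9, 82.8 and 63.7 FPKM at day 0 and 69.0, 105.0 and 47.6 FPKM at day 7, so that replicate 2 of Cthrc1-/- day 7 was the highest of the 12 samples. Summed endothelial markers were at 147% to 241% of the WT day 0 mean in Cthrc1-/- day 7 and 27.5% to 79.7% in Cthrc1-/- day 0. Summed macrophage markers were at 149% to 155% and at 27.6% to 71.6%, respectively. In WT day 7, where Fabp4 was lower, endothelial markers were at 86.1% to 166% and macrophage markers at 113% to 437%. The part of these cells in the Fabp4 values was not tested.

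Pparg (chr6:115360951-115490399), the adipocyte master regulator, had 6.95, 7.44 and 6.11 FPKM in WT day 0 and 2.02, 3.27 and 2.97 FPKM in WT day 7. The log2 change of -1.51 (SE 0.45) lay just outside the threshold (edgeR adjusted p = 0.0526). Cthrc1-/- day 0 had 6.22, 5.05 and 1.68 FPKM and Cthrc1-/- day 7 had 3.38, 5.58 and 2.76 FPKM. Unlike the droplet coat genes, Pparg in replicate 1 of Cthrc1-/- day 0 was within the WT day 0 range.

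**Figure D2:**
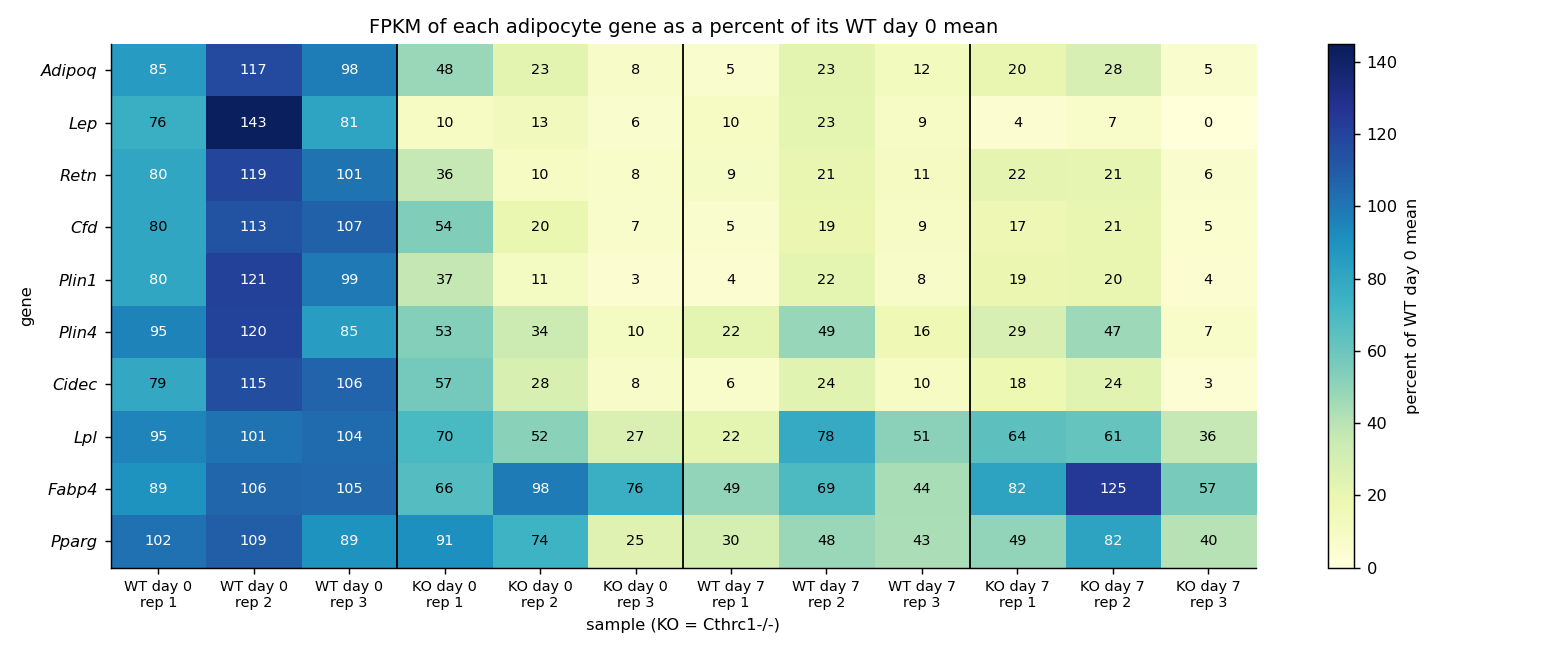
FPKM of each of the 10 genes (rows) in each of the 12 samples (columns) as a percent of that gene's WT day 0 mean, from low to high by colour with the value printed in each cell. Adipoq, Cfd, Retn, Plin1 and Cidec were under 30% in every WT day 7 sample, while Fabp4 ranged from 43.7% to 125% outside WT day 0.

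Between day 0 and day 7 in WT dermis, 6 of the 9 tested genes fell: Retn, Cfd, Adipoq, Cidec, Fabp4 and Plin1. Lpl, Plin4 and Pparg had log2 changes below 0 that did not pass. Of all 14313 genes tested, 7.1% were called lower and 13.1% were called in either direction. The median log2 change of the 9 genes was -3.05, beside -0.0019 over all genes. All 10 genes, Lep included, were lower in every WT day 7 sample than in any WT day 0 sample, which held for 14.1% of all genes tested. In bulk tissue, fewer adipocytes and less RNA per adipocyte cannot be told apart. The count of 6 became 0 when any 1 WT day 0 replicate, or replicate 1 or 3 of WT day 7, was left out, and 3 without replicate 2 of WT day 7 or replicate 1 of Cthrc1-/- day 7. Over all genes those fits called between 3.68% (without replicate 2 of WT day 0) and 14.3% (without replicate 3 of WT day 7). In those fits all 9 log2 changes stayed below 0, and Adipoq, Cfd and Retn had adjusted p-values up to 0.0822, 0.0758 and 0.0672. The Fabp4 call was also lost with total-count scaling, with limma and with no filter on low values (edgeR adjusted p = 0.0630). With no filter the Cidec and Plin1 calls were lost as well.

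Hair markers moved in the opposite direction to these genes in WT. Of the 9 tested, 7 were called higher at day 7, against 6.04% of all genes. Their summed FPKM did not overlap between the days, and up to 2 of them were at 0 in a WT day 0 library. With a hair marker score as a covariate, 0 of the 9 adipocyte genes and 4 of all 14313 genes were called (edgeR), and the Adipoq log2 change became -0.52 (adjusted p = 0.909). Plin4 and Pparg changed sign, to 0.73 and 0.29. The score separated WT day 0 from the other 9 samples completely, so in WT the hair follicle content and the day cannot be told apart. Summed fibroblast markers, at 63.1% to 94.2% of the WT day 0 mean in WT day 7, stood above the sum of the 10 adipocyte genes, which was at 12.6% to 28.7% of its own. Skeletal muscle markers were at 29.2% and 52.6% in replicates 1 and 3 and at 241% in replicate 2, the replicate in which all 10 adipocyte genes were highest. With a muscle score as a covariate, 8 of the 9 were called, all but Plin4, beside 13.9% of all genes.

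**Figure D3:**
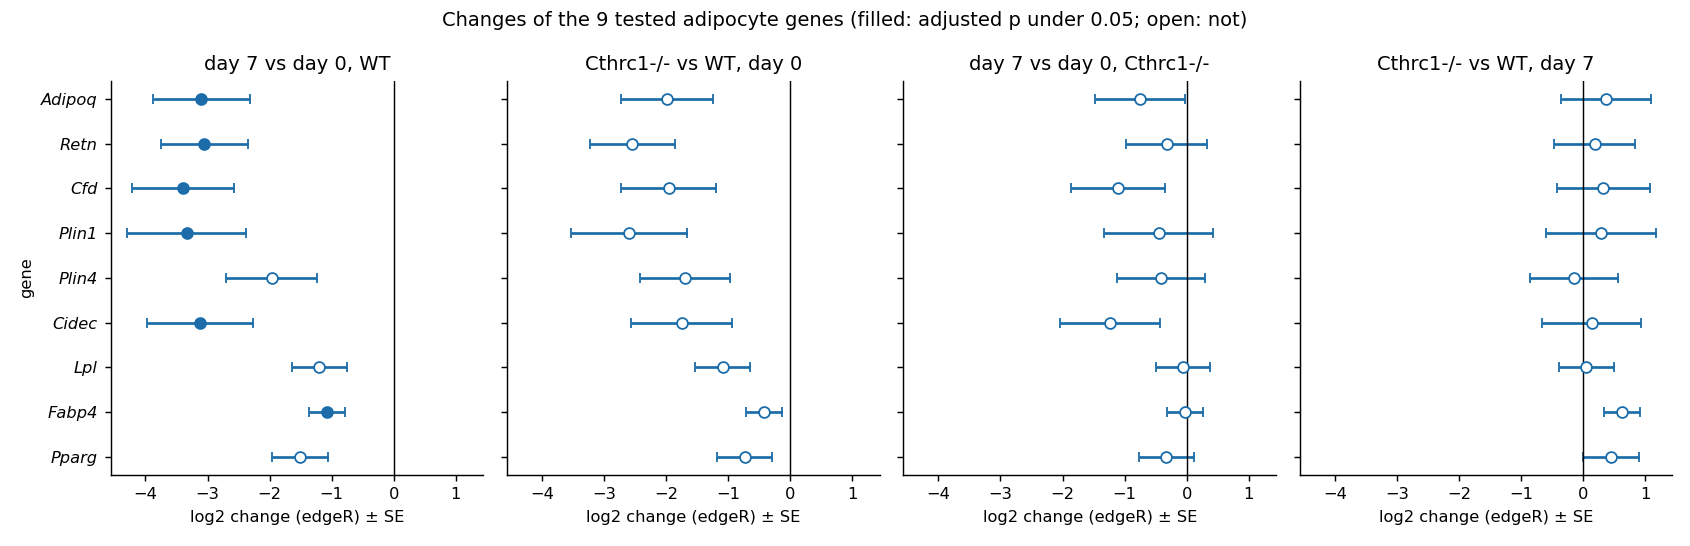
Log2 change with its SE (edgeR) of the 9 tested adipocyte genes (rows) in each comparison (panels); filled points passed an adjusted p of 0.05. Filled points occur in the WT panel of day 7 against day 0 alone, for 6 genes.

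At day 0 every one of the 10 genes had a lower mean in Cthrc1-/- than in WT, but no difference passed the test. None of the 9 was called between Cthrc1-/- and WT at day 0 by edgeR, against 5.78% of all genes (2.26% called lower), and 6 had an unadjusted p under 0.05. DESeq2 called 4 (Retn, Adipoq, Plin1 and Cfd), with 19.5% of all genes called in that fit, and limma on log2(FPKM + 1) called 2 (Retn and Plin1), with 4.2% of all genes called. These calls were all lower. All 9 log2 changes were below 0, with a median of -1.75 beside -0.047 over all genes. They ran from -2.60 (SE 0.93) for Plin1, -2.55 for Retn, -1.98 (SE 0.75) for Adipoq and -1.96 (SE 0.77) for Cfd to -0.73 (SE 0.44) for Pparg and -0.42 (SE 0.29) for Fabp4. The genotypes did not overlap in 8 of the 10 genes, 7 of them among the 9 tested, where 19.8% of all genes tested lay lower without overlap. Fabp4 and Pparg overlapped.

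The 3 Cthrc1-/- day 0 samples differed widely. The summed FPKM of the 10 genes was 55.6%, 32.6% and 17.3% of the WT day 0 mean in replicates 1 to 3. Replicate 1 was the highest of the 3 in 8 of the 10 genes and replicate 3 the lowest in 9. Summed hair markers went the other way, at 245, 5142 and 12662 FPKM, and fibroblast markers went the same way, at 42.8%, 23.3% and 6.05% of the WT day 0 mean. All 9 hair markers were called higher in Cthrc1-/- at day 0, against 3.51% of all genes. With the hair score as a covariate the log2 changes of 7 adipocyte genes turned positive, Adipoq to 0.28 (SE 1.38) and Pparg to 0.97 (SE 0.78). That fit called 0 of the 9 tested adipocyte genes and 0 of all 14313 genes between the genotypes. The score separated the genotypes completely at day 0, so hair follicle content and genotype cannot be told apart there. Skeletal muscle markers were at 14.7% to 56.8% and summed sebaceous gland markers at 124% to 249%. Of the sebaceous sums of 546, 506 and 273 FPKM in replicates 1 to 3, the keratin gene Krt79 alone held 359, 355 and 201 FPKM. Krt79 was named after its values were seen. None of the 7 tested sebaceous genes was called, and their median log2 change was 0.26. With the muscle score as a covariate edgeR called 0 of the 9 adipocyte genes and 0.224% of all genes. Their median log2 change was then -0.98, beside -1.75 in the main fit. What sebaceous tissue contributes to the difference was not tested. Without replicate 1 of Cthrc1-/- day 0, edgeR called 3 genes lower (Retn, Plin1 and Cfd), while calls over all genes rose to 15.0%. Without replicate 3 it called 0, and calls over all genes were 1.66%.

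**Figure D4:**
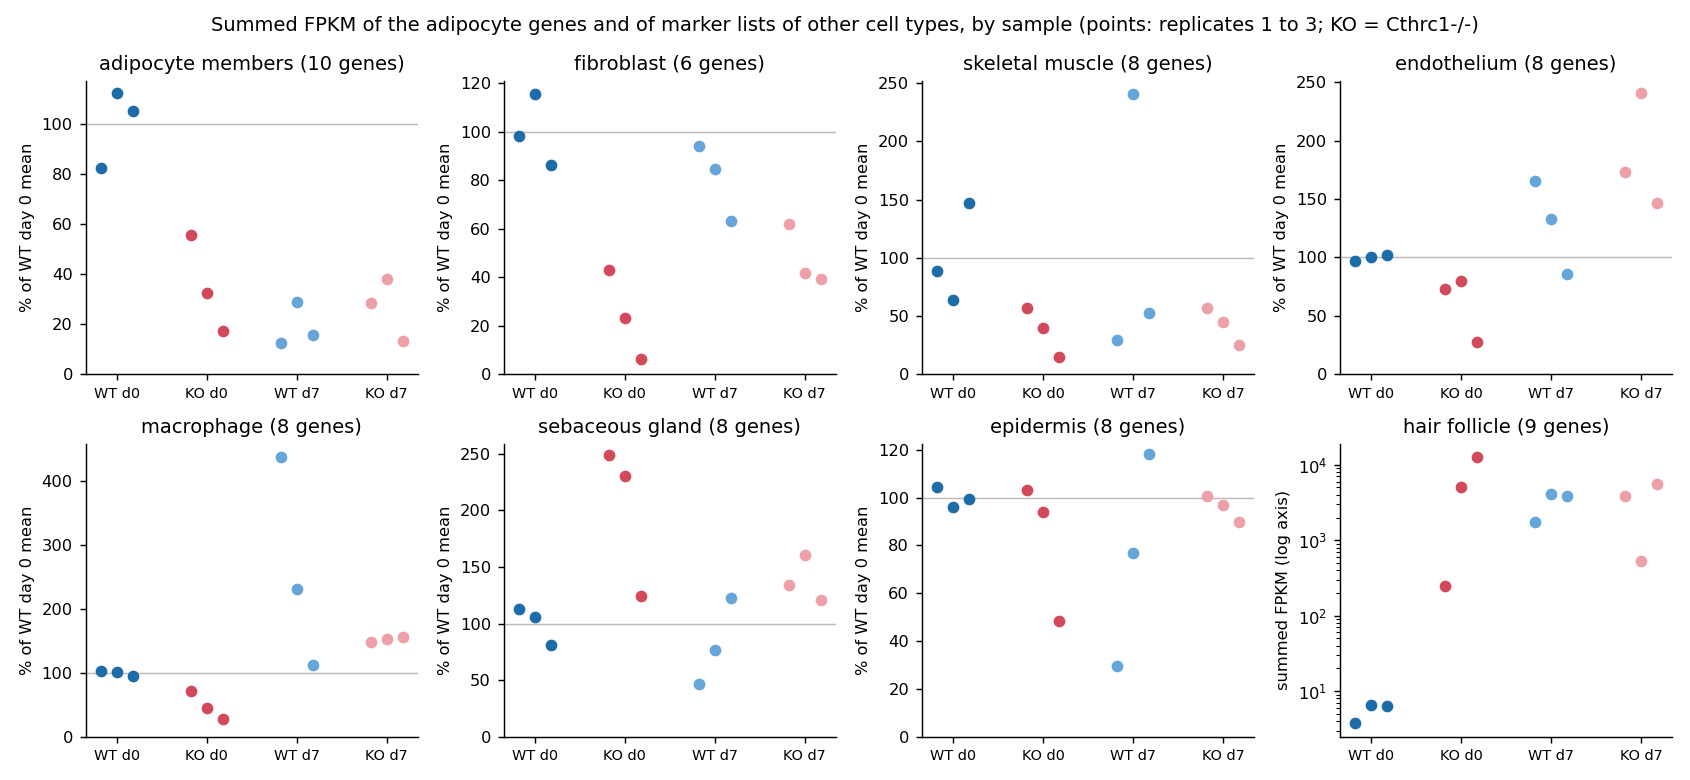
Summed FPKM of the 10 adipocyte genes and of 7 marker lists for other cell types, by group (points are replicates 1 to 3); the hair follicle panel is in FPKM on a log axis and the others in percent of the WT day 0 mean on linear axes. Replicate 3 of Cthrc1-/- day 0 has the highest hair sum, 12662 FPKM, with adipocyte and fibroblast sums of 17.3% and 6.05%.

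At day 7 the genotypes overlapped in 9 of the 10 genes. None of the 9 tested was called by edgeR, where 0.021% of all genes were, and none had an unadjusted p under 0.05. DESeq2 and limma called 0 as well, where DESeq2 called 0.433% of all genes, limma on log2(FPKM + 1) 0.056% and limma on log2(FPKM + 0.1) 0.035%. Log2 changes ran from -0.14 for Plin4 to 0.63 for Fabp4, with a median of 0.28 beside -0.0055 over all genes. Lep was the exception to the overlap, lower in all 3 Cthrc1-/- samples at 0 to 30 counts against 34 to 96 in WT, an order that 2.67% of all genes tested shared. Of the 9 log2 changes, 7 changed sign when some 1 sample was left out: the Cidec log2 change ranged from -0.38 to 0.85 as each sample was left out, and Plin4 from -0.77 to 0.40. With the hair score as a covariate edgeR called 0 of the 9, beside 0.021% of all genes, and their median log2 change became -0.038. The part of endothelial content in this comparison was not tested.

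Within Cthrc1-/- dermis, all 10 genes overlapped between day 0 and day 7, where 4.99% of all genes tested lay lower without overlap. None of 9 was called by edgeR, DESeq2 or limma, and none had an unadjusted p under 0.05 by edgeR. Of all genes, edgeR called 1.46%, DESeq2 9.84%, limma on log2(FPKM + 1) 5.41% and limma on log2(FPKM + 0.1) 5.40%. The median log2 change was -0.41, beside -0.013 over all genes, and the range was -1.23 for Cidec to -0.02 for Fabp4. The WT and Cthrc1-/- changes over time were set against each other by the interaction of genotype and day. It was positive for all 9 genes, between 1.05 and 2.88, but 0 were called by edgeR, where 0.014% of all genes were. DESeq2 called 0 of the 9, where 4.76% of all genes were called. In 4 of them the unadjusted p was under 0.05, and the lowest adjusted p was 0.242. Without replicate 1 of Cthrc1-/- day 0, Retn passed (edgeR adjusted p = 0.0492), beside 1.69% of all genes. WT day 0 enters the genotype comparison at day 0, the WT time comparison and the interaction, so these 3 results share its 3 samples.

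The mix of the 10 transcripts also differed between the WT days. Cfd made up 64.9% ± 1.60 (SD, n = 3) of their summed FPKM in WT day 0 and 35.6% ± 7.74 in WT day 7. Fabp4 made up 14.2% ± 1.01 and 42.9% ± 11.2. In Cthrc1-/- the Cfd share was 42.5% ± 19.6 at day 0 and 32.7% ± 7.99 at day 7, and the Fabp4 share 40.4% ± 22.5 and 48.9% ± 9.59. The WT ranges did not overlap between days, with Cfd at 63.2% to 66.3% and then 27.3% to 42.6%. Lpl and Pparg likewise took larger shares in WT day 7, at 6.83% against 2.69% and 2.59% against 1.17%, with no overlap between the days. Adipoq (4.43% against 6.64%), Plin1 (0.588% against 1.10%), Cidec (2.98% against 4.58%) and Retn (2.53% against 3.46%) took smaller shares, also without overlap. Such shares depend on one another, and the FPKM of Fabp4, Lpl and Pparg was itself lower in WT day 7.

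Levels of the 10 genes were correlated across samples, least for Fabp4 and Lep. Over the 12 samples, which share library, depth and tissue make-up, the correlation of log2(FPKM + 1) with the mean of the other 9 genes was 0.992 for Adipoq, 0.985 for Cfd and 0.979 for Cidec. It was 0.639 for Fabp4 and 0.832 for Lep, and without the 3 WT day 0 samples it was 0.981, 0.964, 0.951, 0.488 and 0.392. In WT day 7, replicate 2 was the highest in all 10 genes, and in Cthrc1-/- day 7 replicate 3 was the lowest in all 10.

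Other genes of adipose tissue, 64 in 7 lists, of which 56 were tested, were followed beside the 10. In WT between the days 13 of 56 (23.2%) were called lower, against 7.1% of all genes, and none higher, against 6.04%. Their median log2 change was -0.50, beside -0.0019 over all genes. Synthesis genes accounted for 6 of the 13, out of 15 listed: Fasn, Acss2, Gpd1, Thrsp, Scd1 and Dgat2. Thrsp, a lipogenic cofactor, fell by 3.82 on the log2 scale (SE 0.98, edgeR adjusted p = 0.0322), and Fasn, the fatty acid synthase, averaged 36.7 ± 4.44 FPKM at day 0 and 17.2 ± 5.11 FPKM at day 7 (edgeR adjusted p = 0.0063). Pck1, also of that list, had a log2 change of -3.64 that did not pass (edgeR adjusted p = 0.0526). Of 10 tested lipolysis and droplet genes, 3 were called lower, the lipases Lipe and Pnpla2 and the droplet factor Fitm2. G0s2, an inhibitor of the lipase Pnpla2 and named after its values were seen, had 309.6 FPKM in replicate 1 of WT day 7 against 7.49 and 4.04 FPKM in replicates 2 and 3. Of 8 tested transcription factors Klf15 and Srebf1 were called lower, and of 7 uptake genes Slc27a1. The share of all genes called lower, 7.1%, stands beside each of these list counts.

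None of 4 hormone receptor genes was called in WT, where 13.1% of all genes were called in either direction. All 4 log2 changes were below 0. The most abundant, the adiponectin receptors Adipor1 and Adipor2, had log2 changes of -0.25 and -0.20. The leptin receptor gene Lepr had -1.02 (edgeR adjusted p = 0.0505) and the adrenergic receptor gene Adrb3 had -1.81 (edgeR adjusted p = 0.0971). None of 8 progenitor genes was called. The 2 most abundant, Ly6a and Cd34, had log2 changes of -1.07 and -1.29, while 5 of the 8, led by Pdgfra at 0.68, were above 0 and the median of the list was 0.26. Of 4 tested brown and beige genes Cidea, which sebocytes also express, was called lower, against 7.1% of all genes. Ucp1, the defining gene of brown fat, was at no more than 0.187 FPKM in any sample. At day 0, 2 of 56 were called lower in Cthrc1-/- (3.57%, near the 2.26% of all genes), the triglyceride synthesis genes Agpat2 (log2 change -0.75, edgeR adjusted p = 0.0311) and Dgat2 (log2 change -1.10, edgeR adjusted p = 0.0477). At day 7 none was called, where 0.021% of all genes were. In Cthrc1-/- between the days 2 were called higher, against 0.859% of all genes. Gpihbp1, which anchors lipoprotein lipase on capillary endothelium, averaged 3.43 ± 1.08 FPKM at day 0 and 14.5 ± 2.99 FPKM at day 7 (edgeR adjusted p = 0.0376). For the transcription factor Ebf1 the log2 change was 1.96 (edgeR adjusted p = 0.0303). These 4, with Pck1, Pdgfra, Lepr and Adrb3, were named after their values were seen. The interaction called none of the 56, and 0.014% of all genes.

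**Figure D5:**
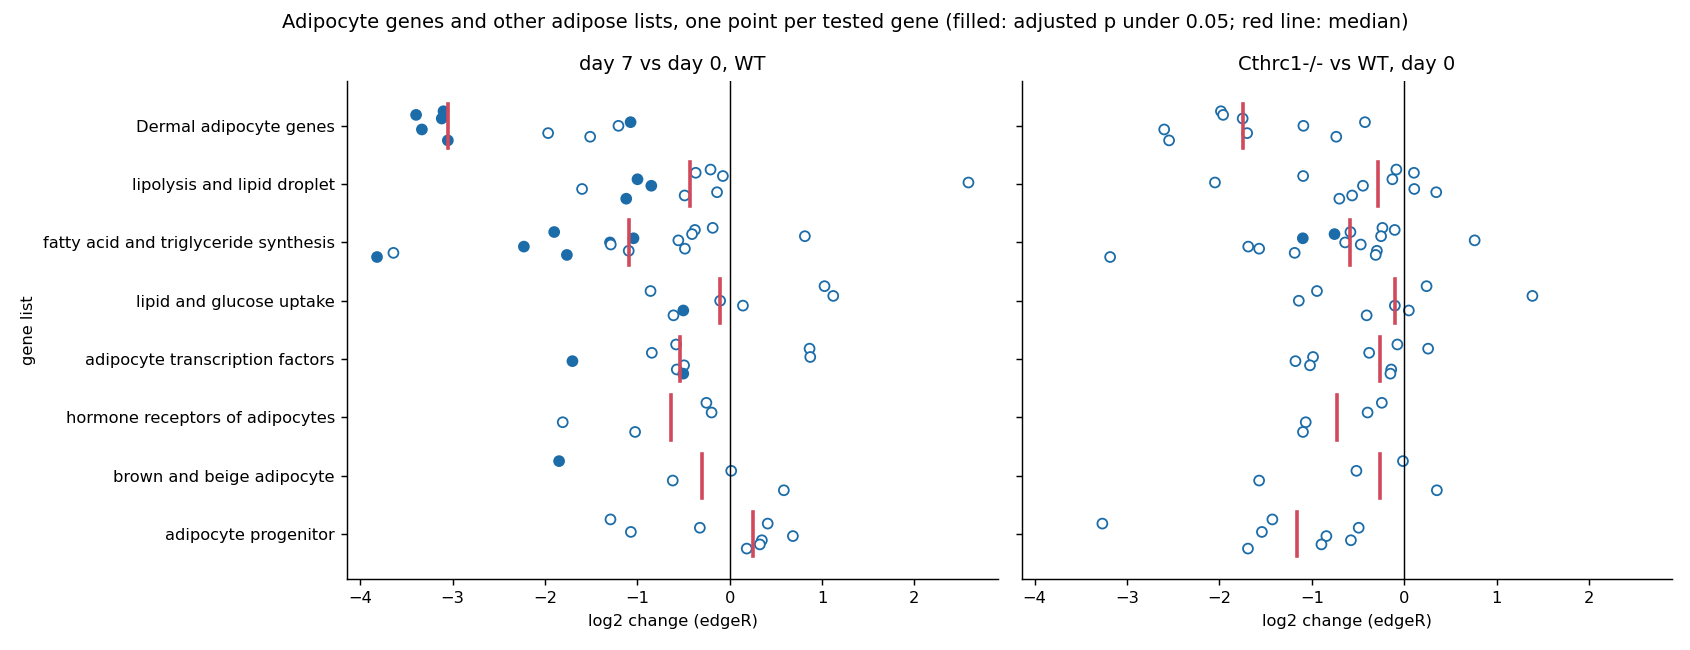
Log2 change (edgeR) of every tested gene of the 10 adipocyte genes and of 7 other adipose lists (rows), one point a gene, with a red line at each list's median; filled points passed an adjusted p of 0.05. In the WT panel of day 7 against day 0 the adipocyte genes have the lowest list median, -3.05, while the single lowest gene is Thrsp of the synthesis list, at -3.82.

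The genes closest in pattern to the 10, other than the 10 themselves, were sought among 7220 genes by the correlation of log2(FPKM + 1) with the mean of the z-scored 10 genes over 12 samples. The 8 highest were Cyp2e1 (r = 0.983), Thrsp (0.978), Cyp2f2 (0.978), Txnip (0.969), Aldh1a1 (0.967), Gpd1 (0.966), Plpp3 (0.962) and Ablim3 (0.960). Thrsp and Gpd1 belong to the synthesis list. Without WT day 0, r over the other 9 samples stayed at 0.974 for Cyp2e1 and was lowest, 0.878, for Gpd1. Cyp2e1, a cytochrome P450, averaged 39.9 ± 9.02 FPKM in WT day 0 and 3.62 ± 4.86, 7.47 ± 8.24 and 4.28 ± 3.30 FPKM in WT day 7, Cthrc1-/- day 0 and Cthrc1-/- day 7. As the samples share tissue make-up and depth, these correlations are a description and carry no test.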

How the data were processed

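Poly(A) RNA of 12 dermis samples was sequenced as strand-marked paired-end libraries with molecular identifiers, per the labels' protocols. The submitters' processing notes name cutadapt 1.9, HISAT2 2.0.4, UMI-tools, StringTie 1.3.4d, DESeq2 and edgeR and the build GRCm38. Their roles, and whether counts were collapsed on the identifiers, are not given in the sources used here. The authors deposited a count and an FPKM value per gene. An FPKM of 0.0001 accompanied counts of 0 and was set to 0. Low counts cluster at multiples of 4, so counts divided by 4 were an alternative.

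Groups and replicate numbers came from the titles. Deposited counts were tested with edgeR 4.0.16 (quasi-likelihood, two-sided, TMM, R 4.3.3). All 12 samples entered 1 fit of 4 group means, over the 14313 genes whose FPKM averaged 1 or more, and p was adjusted by Benjamini-Hochberg over all of them, with calls under 0.05. The labels call the 3 replicates biological and say no more. The p-values of the main fit set group differences against the spread between these samples, estimated over all 4 groups. A floor of 3 counts is 0.0390 to 0.0621 CPM, for counting error only. GENCODE M21 on GRCm38 named 55141 gene IDs. Of 10 hair markers 9 were matched. Alternatives were DESeq2 1.42.0, limma 3.58.1 on log2(FPKM + 1) or + 0.1, other scalings, no low-value filter, covariates, a replicate block and each sample left out. The script was tested on simulated data.

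The 10 genes and all lists were chosen with earlier results of these data known. All 10 are named. Of each other list, up to 4 called genes of smallest p are named, from the comparison with most calls, or else the 2 most abundant. The 8 closest genes were sought among those averaging 5 FPKM or more with a symbol that is not a placeholder. The synthesis list's remaining called genes were named after their values were seen. Unused sample columns numbered 0.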

Additional observations from a re-analysis of the deposited data

How the results depend on the processing

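With each sample left out in turn, the number of the 9 tested genes called ranged from 0 to 8 between days in WT (main 6), 0 to 3 between genotypes at day 0 (main 0) and 0 to 1 for the interaction (main 0). It stayed 0 at day 7 and between days in Cthrc1-/-. The fit that called 8 in WT left out replicate 3 of Cthrc1-/- day 0, and there 21.0% of all genes were called. At day 0, DESeq2 called 4 (19.5% of all genes) and limma on log2(FPKM + 1) 2 (4.2%). Retn alone was called by limma on log2(FPKM + 0.1) (4.85% of all genes) and with the replicate block (6.17%). In WT, DESeq2 called 9 of 9 (24.8% of all genes) and a fit of the groups compared alone 8 (14.7%). There limma on log2(FPKM + 1) called 6 (13.4%) and on log2(FPKM + 0.1) 5 (14.0%). In WT, 3 of 10 were called with no low-value filter (3.77% of all genes) and 0 of 9 with the hair covariate (0.028%). Over all genes, calls ranged over the alternatives from 0 to 2787 between genotypes at day 0 (main 827), 0 to 62 at day 7 (main 3), 4 to 3551 in WT (main 1880), 5 to 1409 in Cthrc1-/- (main 209) and 0 to 681 for the interaction (main 2). With a replicate block, the members called were 1, 0, 7, 0 and 0 in those 5 comparisons. Over all genes it called 6.17%, 0.014%, 10.2%, 2.03% and 0.007%, in the same order. For the correlations that follow, log2 CPM was centred on each gene's group mean, so they compare only what is left within groups. Centring makes same-numbered and differently numbered values depend on each other. Same-numbered samples correlated between 0.023 and 0.087 in WT, above all differently numbered ones (-0.083 to 0.016). They correlated between -0.032 and 0.054 at day 0, -0.232 and 0.139 at day 7, and -0.124 and 0.426 in Cthrc1-/-. Those ranges overlapped the differently numbered ones. The main fit had no block because the labels do not say that a replicate number marks a shared animal. Total-count scaling moved the median of all genes to 0.196 in WT and 0.158 in Cthrc1-/-, and 5 members were then called in WT, where 1669 of 2212 calls over all genes were higher, against 864 of 1880 with TMM. Apart from the single-sample omissions, log2 changes changed sign as follows, and the cause was not tested. With the hair covariate they became, at day 0, Adipoq 0.28, Plin1 0.023, Plin4 0.80, Cidec 0.68, Fabp4 0.0054, Cfd 0.53 and Pparg 0.97. At day 7 they became Plin1 -0.11, Cidec -0.26, Lpl -0.038, Retn -0.057 and Cfd -0.027, and in WT Plin4 0.73 and Pparg 0.29. For the interaction they became Adipoq -0.28, Plin1 -0.13, Plin4 -1.31, Cidec -0.94, Cfd -0.55 and Pparg -0.69. At day 7, Plin4 was 0.45 with the muscle covariate and Cidec -0.088 with the replicate block. In Cthrc1-/- between days, limma on log2(FPKM + 0.1) gave Plin1 0.010, Fabp4 0.075 and Lpl 0.17, limma on log2(FPKM + 1) Fabp4 0.075 and Lpl 0.15, total-count scaling Fabp4 0.15 and Lpl 0.13, and a fit of the groups compared alone Fabp4 0.014. Each sample left out gave, at day 7, Adipoq -0.14 to 0.99, Plin1 -0.12 to 1.21, Plin4 -0.77 to 0.40, Cidec -0.38 to 0.85, Lpl -0.29 to 0.50, Retn -0.072 to 0.59 and Cfd -0.062 to 0.94. In Cthrc1-/- between days it gave Adipoq -1.25 to 0.038, Plin1 -0.94 to 0.87, Plin4 -1.04 to 0.17, Fabp4 -0.37 to 0.22, Lpl -0.38 to 0.30, Retn -0.70 to 0.78 and Pparg -0.73 to 0.060. Depth limits Lep, at 0 to 681 counts.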
